A study of Mus musculus with 1152 samples.

Results

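Oligodendrocyte precursor cells (OPCs) were described in 218 of 857 wells of sorted adult mouse brain cells (25.4%), a share that ran from 8.37% to 49.6% between the sets of wells named further on. The wells were selected on their own transcripts. A well was taken as an OPC well when it had at least 50000 reads, at least 100 CPM of Pdgfra (CPM is the count of a gene scaled to 1e6 reads of the well), at least 200 CPM of Cspg5 and of Ptprz1, under 200 CPM of Enpp6 and under 5% of its reads on mitochondrial genes. They were set chiefly against 79 wells of committed oligodendrocyte precursors (COPs), chosen by at least 500 CPM of Enpp6 and under 100 CPM of Pdgfra, and beside these against 197 wells of mature oligodendrocytes, chosen by at least 200 CPM each of Mog and Mag, under 100 CPM of Pdgfra, under 200 CPM of Enpp6 and the same limit on mitochondrial reads. By these rules no well fell into more than 1 class.

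The study sorted fluorescent brain cells by FACS into 384-well plates and sequenced the RNA of each well with SMART-seq2, which copies full-length cDNA without molecular identifiers. The cells came from adult male and female C57BL/6 mice of 2 lines. Pdgfra-H2BGFP mice carry a nuclear green fluorescent protein under Pdgfra, and in Tagl-CREERT2;Ai14 mice a tamoxifen-dependent recombinase under the promoter the labels write as Tagl switches on a red fluorescent protein. Vascular fragments had been captured with beads against CD31, an endothelial surface protein, before the sort, so all classes below passed the same capture and their shares are not shares of brain cells. The labels tie no well to a line, an animal or a plate, so an OPC well taken for its Pdgfra reporter and one taken for another reason cannot be told apart. All wells were handled as 1 sample without a replicate check, and calls below are by size only.

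OPCs are the dividing, process-bearing glia that persist throughout the adult brain and give rise to oligodendrocytes, the cells that make myelin. They depend on platelet-derived growth factor through its alpha receptor, are held immature by Notch and by transcription factors such as those of the Hes and Id families, and receive synaptic input from neurons through glutamate and GABA receptors. On leaving this state they pass through the committed precursor stage, with Enpp6, Bmp4 and Fyn, before the regulator Myrf turns on the myelin genes.

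The wells fell into 3 sets by the start of their names. OPC wells numbered 173 of 349 kept wells in set 600s_182s, 25 of 269 in 613s and 20 of 239 in 1025s_182s, and COP wells 63, 8 and 8 in the same order. OPC wells had 54417 to 1061289 reads (median 270760), COP wells 75647 to 1366138 (median 469801). The median number of genes with reads was 7052 in OPC wells and 8050 in COP wells, but 4287 in the OPC wells of 1025s_182s. Mitochondrial genes took a median of 1.77% of the reads in OPC wells and 1.18% in COP wells, where the rule set no limit and 1 well reached 11.6%.

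The promoters of the genes that stood farthest apart between the classes are shown here, since these genes stand at the ends of the ranking described further on. They are the 250 bases before the RefSeq start on build GRCm38.p6, written 5′ to 3′ on the gene's strand, for the first 3 genes on each side that have an entry and may be shown. Capitals mark CANNTG, the E-box core that basic helix-loop-helix factors such as OLIG2 bind, and ACAAAG or its reverse complement CTTTGT, a core of SOX-family sites. Tacc2, Rlbp1 and Dll3 were higher in OPC wells.
Tacc2 (chr7:130577188-130577437, plus strand): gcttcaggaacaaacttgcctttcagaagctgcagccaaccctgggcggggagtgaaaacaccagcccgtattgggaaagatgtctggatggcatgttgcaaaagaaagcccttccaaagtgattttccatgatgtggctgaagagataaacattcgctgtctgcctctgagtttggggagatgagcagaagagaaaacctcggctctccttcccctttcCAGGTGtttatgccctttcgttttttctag
Rlbp1 (chr7:79387028-79387277, minus strand): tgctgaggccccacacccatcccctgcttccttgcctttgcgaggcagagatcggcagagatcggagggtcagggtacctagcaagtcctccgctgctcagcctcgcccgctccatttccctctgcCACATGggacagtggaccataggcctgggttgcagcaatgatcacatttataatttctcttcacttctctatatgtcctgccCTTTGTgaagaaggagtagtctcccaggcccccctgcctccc
Dll3 (chr7:28301786-28302035, minus strand): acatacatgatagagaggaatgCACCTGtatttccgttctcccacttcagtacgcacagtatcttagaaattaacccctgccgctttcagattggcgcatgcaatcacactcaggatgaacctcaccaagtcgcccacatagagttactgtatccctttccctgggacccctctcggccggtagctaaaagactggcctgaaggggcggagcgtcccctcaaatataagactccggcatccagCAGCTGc
Cdk18, Ddc and Ssh3 were lower in OPC wells than in COP wells.
Cdk18 (chr1:132139686-132139935, minus strand): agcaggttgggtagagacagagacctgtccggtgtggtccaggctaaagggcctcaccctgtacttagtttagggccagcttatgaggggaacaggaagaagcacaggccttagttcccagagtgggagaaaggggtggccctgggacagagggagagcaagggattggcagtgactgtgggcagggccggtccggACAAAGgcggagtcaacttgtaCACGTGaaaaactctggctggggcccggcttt
Ddc (chr11:11898145-11898394, minus strand): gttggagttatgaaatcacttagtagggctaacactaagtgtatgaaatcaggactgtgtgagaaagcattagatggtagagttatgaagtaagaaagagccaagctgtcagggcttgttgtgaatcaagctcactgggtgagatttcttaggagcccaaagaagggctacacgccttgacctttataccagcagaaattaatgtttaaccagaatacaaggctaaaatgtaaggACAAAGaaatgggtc
Ssh3 (chr19:4269181-4269430, minus strand): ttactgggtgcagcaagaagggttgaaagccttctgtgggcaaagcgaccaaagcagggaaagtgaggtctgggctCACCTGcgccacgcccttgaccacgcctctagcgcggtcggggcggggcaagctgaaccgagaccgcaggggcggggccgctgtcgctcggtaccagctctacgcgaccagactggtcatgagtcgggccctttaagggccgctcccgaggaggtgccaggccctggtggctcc
Dll3 held 2 E-box cores, Tacc2, Rlbp1, Cdk18 and Ssh3 held 1 each and Ddc held 0. The SOX core stood once in Rlbp1, Cdk18 and Ddc. Of all 32851 RefSeq promoters of this length, 66.2% held an E-box core and 16.5% the SOX core on either strand, and a match is a description of the letters.

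The levels that chose the OPC wells lay far above those of COP wells. Pdgfra, the receptor (GRCm38, chromosome 5, 75152292 to 75198215, plus strand), ran from 103 through a median of 1130 to 4926 CPM in OPC wells and from 0 through 17.6 to 71.5 CPM in COP wells. Cspg5, the proteoglycan neuroglycan C, ran from 202 through 1547 to 4789 CPM in OPC wells and from 0 through 30.3 to 477 CPM in COP wells. Ptprz1, a receptor phosphatase that is also made as a proteoglycan, ran from 312 through 2883 to 8389 CPM in OPC wells and from 0 through 243 to 1836 CPM in COP wells. The rule limited the lower end of all 3 ranges in OPC wells and the upper end of Pdgfra in COP wells. These values thus describe the choice of wells, though the limit on Ptprz1 alone left out 0 wells. The ranges of Cspg5 and Ptprz1 overlap between the classes. Summed over wells, the log2 ratios of OPC over COP were 6.20 for Pdgfra, 5.11 for Cspg5 and 2.94 for Ptprz1.

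The markers that the rule did not use were also high. Cspg4, which encodes the NG2 proteoglycan by which these cells are usually recognised, ran from 1.07 through 1031 to 5948 CPM in OPC wells and from 0 through 17.5 to 556 CPM in COP wells. It was at 0 in no OPC well, and its summed levels were 1108 and 54.3 CPM (log2 ratio 4.33). Its ratio was 4.15 within 600s_182s, 7.20 within 613s and 9.19 within 1025s_182s. In 600s_182s, 98.4% of COP wells and 100% of mature oligodendrocyte wells had reads of it too, at medians of 19.8 and 19.7 CPM. Lhfpl3, a transmembrane protein gene, ran from 0 through 707 to 2392 CPM in OPC wells, with 4 of them at 0, and from 0 to 675 CPM in COP wells, 63.3% of which had reads of it when thinned to 50000 reads (log2 ratio 3.41). Olig1, the lineage transcription factor, marked both classes, with 878 through 4009 to 7967 CPM in OPC wells and 39.7 through 1956 to 3705 CPM in COP wells (log2 ratio 1.00).

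**Figure D1:**
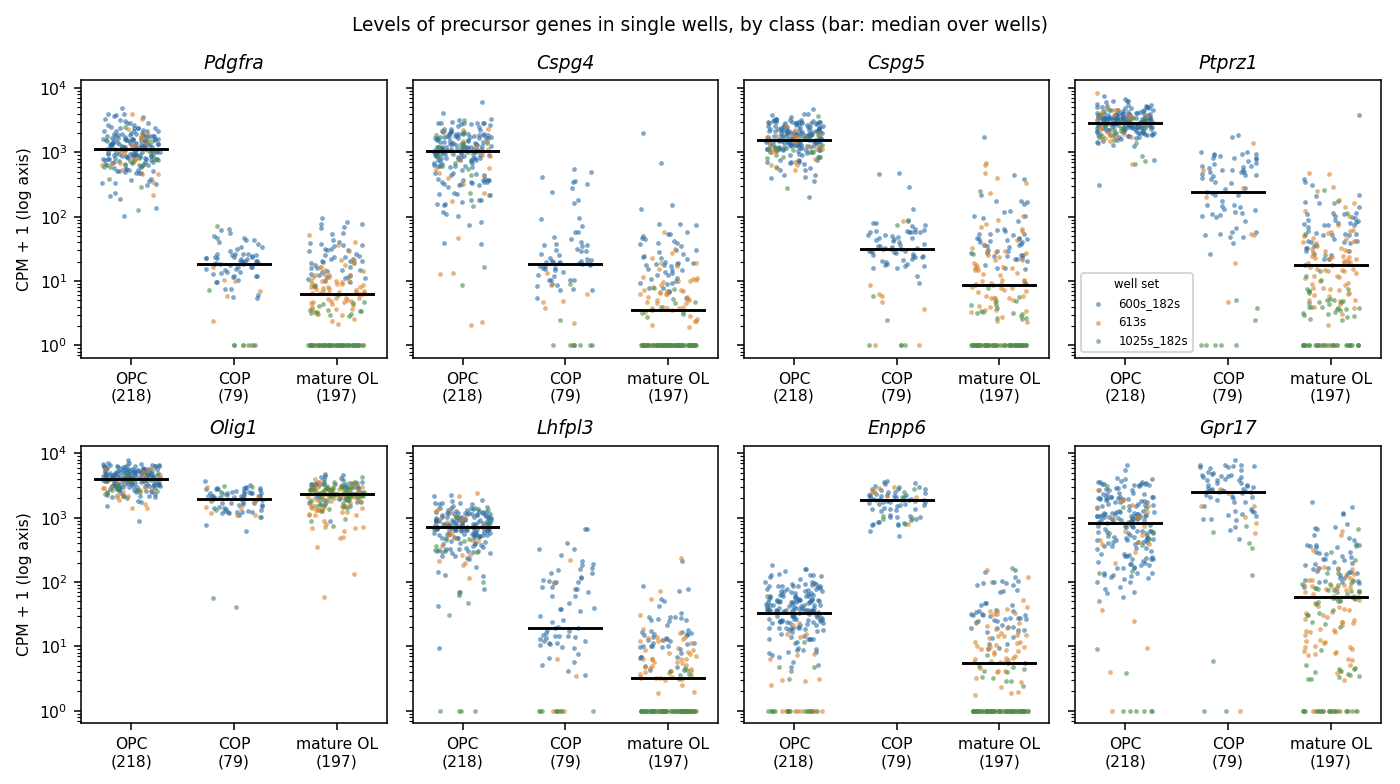
CPM + 1 on a log axis of 8 genes in each OPC, COP and mature oligodendrocyte (OL) well, coloured by well set, with the median over wells as a bar. The median of Pdgfra was 1130 CPM in OPC wells and 17.6 CPM in COP wells, and that of Enpp6 was 32.6 CPM in OPC wells and 1885 CPM in COP wells.

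Wells with OPC levels of the other rule genes and more Enpp6 were counted as well. Enpp6, a choline phosphodiesterase, reached 185, 160 and 159 CPM in the 3 OPC wells nearest to its limit, and the nearest wells that failed this criterion alone had 330, 470 and 534 CPM. Such wells numbered 7, and wells with raised Enpp6 that failed other criteria too are not in this count. Of these, 2 had Enpp6 under 500 CPM, with 853 CPM of Pdgfra, 413 CPM of Fyn and 7017 CPM of Mbp over both wells, and 5 had more, with 621 CPM of Pdgfra, 219 of Fyn and 179 of Myrf. OPC wells had 143 CPM of Fyn, 2125 of Mbp and 20.5 of Myrf. Other genes that were higher in COP wells did not all follow. Bmp4 had 6.88 CPM in the 2 wells, 2.04 CPM in the 5 and 17.3 CPM in OPC wells. Gpr17 had 650, 496 and 1153 CPM in the same order, so both genes were lower than in OPC wells. Tcf7l2 (158, 29.6 and 75.1 CPM) and Bcas1 (523, 121 and 416 CPM) were higher in the 2 wells and lower in the 5. On the other criteria, 10 wells failed on Pdgfra alone, with 96.0 CPM as the nearest outside and 103 CPM as the nearest inside, 11 failed on Cspg5 alone (166 and 202 CPM), 0 on Ptprz1 and 10 on the mitochondrial share (5.05% and 4.71%).

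Markers of other cells were present in OPC wells, and several of their sums differed between the classes. The astrocyte list summed to 1177 CPM in OPC wells and 284 CPM in COP wells, nearly all from Aldoc (585 CPM) and the glutamate transporter Slc1a2 (519 CPM), while Gfap, Aqp4 and Gja1 had 27.5, 15.8 and 9.37 CPM in OPC wells and were at 0 in 173, 169 and 157 of them. The neuron list summed to 246 CPM in OPC wells and 40.4 CPM in COP wells, led by Snap25 (117 CPM) and Gad1 (76.1 CPM). Single OPC wells ranged from 16.4 to 5333 CPM for the astrocyte list and from 0 to 2609 CPM for the neuron list. The fibroblast list, of the other cells that use Pdgfra, summed to 63.8 CPM in OPC wells and 59.0 CPM in COP wells, but 1 COP well of 1025s_182s held 5129 CPM of its gene Dcn. Over wells the list had medians of 55.9 CPM in OPC wells and 23.4 CPM in COP wells, and the log2 ratio of Dcn was 1.12 within 600s_182s, 0.97 within 613s and −4.58 within 1025s_182s. Dcn was at 0 in only 4 OPC wells, at a median of 30.5 CPM. Sums over the endothelial, mural and microglial lists were 36.8, 18.1 and 31.4 CPM in OPC wells, against 16.6, 8.24 and 46.9 CPM in COP wells. Of 5 ependymal genes, Ccdc153 and Tmem212 were at 0 in every OPC well and at 0.14 and 0 CPM in all other kept wells, while Rarres2 had 12.1 CPM and Foxj1 3.29 CPM in OPC wells. At least 3 markers of another lineage at 20 CPM were found in 81 OPC wells (37.2%, 30.7 to 43.9) and 16 COP wells (20.3%, 12.0 to 30.8). The astrocyte list gave this in 34 OPC wells and 7 COP wells. Its genes Aldoc and Slc1a2 had reads in 89.4% and 95.9% of thinned OPC wells and in 81.0% and 53.2% of thinned COP wells. The count thus includes genes that most OPC wells hold. The part of wells with markers of another lineage in the results was not tested beyond leaving them out.

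Across all genes with at least 10 CPM in either class, 2765 of 11467 (24.1%) were at least 2-fold higher in OPC wells and 1250 (10.9%) at least 2-fold lower than in COP wells. The median log2 ratio of all these genes was 0.17. This is the contrast that chose the wells, so the counts describe it and carry no test. The call was the same in all 3 sets for 1002 of the higher and 466 of the lower genes.

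Among the genes highest in OPC wells relative to COP wells were a Notch ligand, targets and brakes of growth factor signalling and an endothelin receptor. Cdo1, a cysteine dioxygenase that leads to taurine, ran from 0 through 331 to 2934 CPM in OPC wells and from 0 through 4.27 to 22.0 CPM in COP wells. Its summed levels were 418 CPM (414 to 423) and 4.73 CPM (4.08 to 5.45), a log2 ratio of 6.19, the highest by the naming rule. Etv5, an ETS transcription factor induced by fibroblast growth factors and the ERK pathway, ran from 0 through 468 to 2658 CPM in OPC wells and from 0 through 8.05 to 167 CPM in COP wells (log2 ratio 5.87). The brakes of the same pathway Spry4 and Spry1 stood at 5.49 and 5.29, with medians of 12.7 and 17.3 CPM over OPC wells and highest wells of 1438 and 1325 CPM. Many OPC wells thus had little of either gene, and COP wells reached 20.7 CPM of Spry4 and 270 CPM of Spry1.

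Ednrb, the endothelin B receptor, had reads in 91.3% of OPC wells thinned to 50000 reads and in 32.9% of COP wells, at 686 CPM (679 to 692) and 12.2 CPM (11.1 to 13.3). Its log2 ratio was 5.70, and 7.84 and 8.38 within the smaller sets 613s and 1025s_182s. Rlbp1, a retinaldehyde-binding protein, ran from 0 through 314 to 4129 CPM in OPC wells and from 0 through 5.01 to 66.1 CPM in COP wells (log2 ratio 6.17). Also among the 15 were Tacc2 (6.17), a centrosome and microtubule protein, Igfbp3 (5.72), which binds insulin-like growth factors, C1ql2 (5.67), a secreted C1q-like protein, Slc38a3 (5.65), a glutamine transporter, and Kcnd2 (5.55), an A-type potassium channel, with log2 ratios in parentheses. The remaining genes named by this rule were Dll3 (6.01), Tmem255a (5.55), Sapcd2 (5.52) and Adora1 (5.38), the adenosine A1 receptor. The rule kept only genes with the same call in all 3 sets.

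Genes lowest in OPC wells relative to COP wells included regulators of myelination and of the cell skeleton. Rassf10, a Ras-association domain gene, ran from 0 through 0 to 40.0 CPM in OPC wells and from 0 through 75.4 to 1155 CPM in COP wells, a log2 ratio of −6.00. It was low in mature oligodendrocyte wells too, at 0.776 CPM, so among these 3 classes it was highest in COP wells. Myrf, the regulator that turns on myelin genes, ran from 0 through 11.7 to 457 CPM in OPC wells and from 0 through 421 to 1442 CPM in COP wells (log2 ratio −4.61), with 416 CPM in mature oligodendrocyte wells. Ddc, the aromatic amino acid decarboxylase, stood at −5.25, with 7.66 CPM in OPC wells and 329 CPM in COP wells. Ssh3, a cofilin phosphatase, and Chn2, a Rac-inactivating protein, stood at −5.16 and −4.41. The kinases Cdk18 and Sgk2 (−5.57 and −4.94), the peptidase Cpm (−5.07), the membrane protein Prom1 (−5.00), Cnksr3 (−4.89), the kinesin Kif19a (−4.44), the zinc finger factor St18 (−4.37), the DNA repair gene Brca1 (−4.36) and the lens filament gene Bfsp2 (−4.36) were also among the 15 lowest. Like Rassf10, Brca1 was low at both ends, with 7.43 CPM in OPC, 173 CPM in COP and 1.28 CPM in mature oligodendrocyte wells.

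**Figure D2:**
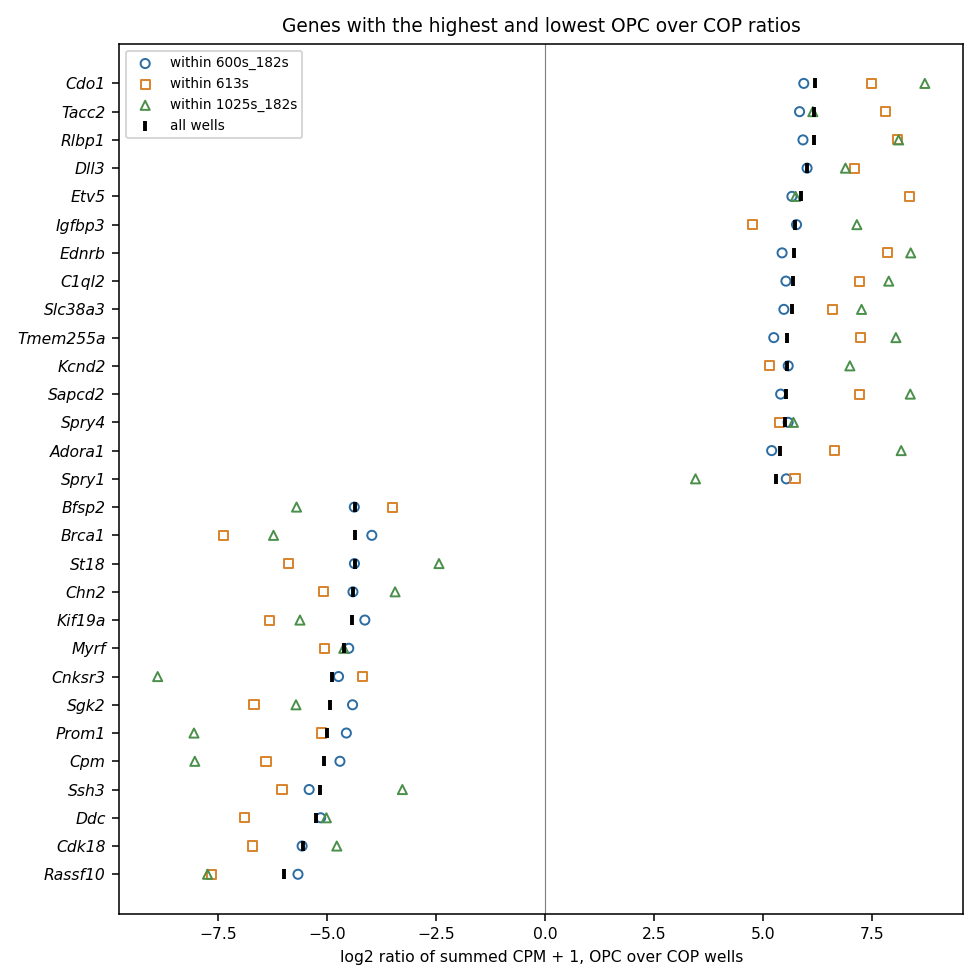
The log2 ratio of OPC over COP wells for the 15 highest and 14 of the 15 lowest genes by the naming rule, over all wells (black bar) and within each well set. The naming rule required a call of at least 2-fold, with 10 CPM in the higher class, on the same side in all 3 sets. The values nearest to 0 were 3.44 for Spry1 in 1025s_182s and −2.44 for St18 in 1025s_182s.

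Of the transcription factors known from precursors, some were far higher in OPC wells and others had like levels in COP wells. Of 21 measured, 12 were higher in OPC wells (24.1% of all genes tested), 1 was lower (10.9%) and 8 lay within 2-fold. The median log2 ratio was 2.08. After Etv5 (5.87), among the highest were Hes5 (5.39) and Hes1 (4.38), repressors downstream of Notch, Etv4 (4.47), the relative of Etv5, and Prrx1 (4.27). Hes5 had 155 CPM summed over OPC wells but a median of 4.17 CPM, so a minority of wells held most of it. Sox6 (0.16), Sox10 (−0.22) and Sox8 (−0.51) were close in both classes. Olig2 (0.89) was higher in OPC wells but under the 2-fold call. Sox13, at 17.6 CPM in OPC wells and 45.7 CPM in COP wells, was the only factor called lower (−1.33). This direction is given by 600s_182s alone, with 1.11 within 613s and 0.14 within 1025s_182s. Sox10, which the whole lineage uses, had medians of 1041 CPM in OPC wells and 1313 CPM in COP wells. Of 12 factors of differentiation, 0 were higher and 6 lower in OPC wells (median −0.97), among them Myrf, St18 and the Wnt effector Tcf7l2 at −3.18, while Tcf4 stood at 0.34.

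Receptors of growth factors and other ligands lay in both directions. Of 19 measured besides Pdgfra, 8 were higher and 4 lower in OPC wells, with a median log2 ratio of 0.68, where 24.1% of all genes tested were higher and 10.9% lower. Ntrk2, the receptor of brain-derived neurotrophic factor, had 0 through 865 to 4380 CPM in OPC wells and 0 through 29.0 to 1238 CPM in COP wells (log2 ratio 2.75). Fgfr1 (2.87), the sphingosine phosphate receptor S1pr2 (2.57) and Fgfr3 (1.62) were also higher, whereas Fgfr2 (−2.23), S1pr5 (−2.40), Ednra (−2.45) and the lysophosphatidic acid receptor Lpar1 (−2.88) were lower. The fibroblast growth factor, sphingosine phosphate and endothelin receptor families thus each had members on both sides. Ednrb had 686 CPM in OPC wells and 12.2 CPM in COP wells, while Ednra had 11.6 CPM in OPC wells and 68.1 CPM in COP wells, though within 1025s_182s its ratio was 2.48.

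Ligands were mostly higher in OPC wells, in 14 of 17 measured (2 lower, median 2.64), beside 24.1% and 10.9% of all genes tested. Wnt7a and Wnt7b, Wnt ligands known to act on brain endothelium, had 88.6 and 204 CPM in OPC wells, against 1.06 and 4.95 CPM in COP wells (log2 ratios 5.44 and 5.10). Their medians over OPC wells were 0 and 8.63 CPM, with highest wells of 1027 and 1901 CPM. Ptn, the growth factor pleiotrophin that binds Ptprz1, ran from 28.4 through 874 to 1970 CPM in OPC wells and from 4.11 through 53.9 to 2060 CPM in COP wells (log2 ratio 2.92). It was in all thinned OPC wells, and mature oligodendrocyte wells had a like level of 906 CPM, against 891 CPM in OPC wells. Lower in OPC wells were Bmp4 (−4.90) and Pdgfa (−3.56), the ligand of Pdgfra, which had 21.6 CPM in OPC wells and 265 CPM in COP wells. Bmp4 had 17.3 CPM in OPC wells and 544 CPM in COP wells, but within 1025s_182s it was at 0 in all 8 COP wells.

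Proteoglycans and matrix genes, which make up much of the pericellular coat of the brain, held 13 higher and 3 lower of 23 measured (median 2.12). Over all genes tested the shares were 24.1% higher and 10.9% lower. Sdc3, a syndecan, ran from 0 through 1002 to 4008 CPM in OPC wells and from 0 through 16.3 to 439 CPM in COP wells (log2 ratio 4.97). The glypican Gpc5 stood at 5.23, neurocan (Ncan) at 3.11, and Sparcl1 and Matn4 at 2.80 and 2.34. Of the aggregating proteoglycans of the brain matrix, brevican (Bcan) was little different, at 0.12. Versican (Vcan) was higher in OPC wells, at 0.96, just under the 2-fold call. Bcan ran from 10.4 through 2663 to 6229 CPM in OPC wells and from 0 through 2230 to 7043 CPM in COP wells, yet summed to 78.7 CPM in mature oligodendrocyte wells. The collagens Col9a1 (−3.29) and Col9a3 (−2.05) were lower in OPC wells, and tenascin-R (Tnr) stood at −0.97, with 735 CPM in OPC wells and 1441 CPM in COP wells.

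Notch pathway genes were higher in OPC wells in 9 of 13 cases and lower in 1 (median 1.64), against 24.1% and 10.9% of all genes. The ligands Dll3 and Dll1 stood at 6.01 and 4.56 and the ligand-like Dner at 3.58, and the receptor Notch1, with 0 through 248 to 3767 CPM in OPC wells and 0 through 14.0 to 845 CPM in COP wells, at 1.64. Notch2 was lower (−1.85), at 2.34 CPM in OPC wells and 11.0 CPM in COP wells, with 0.31 within 1025s_182s. Rbpj, the DNA-binding partner of the pathway, stood at 0.46. Dll1 had reads in 26.6% of thinned OPC wells, with a highest well of 1128 CPM, and in 7.59% of thinned COP wells, so most OPC wells had none at this depth.

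Receptors of neurotransmitters were higher in OPC wells or within 2-fold, with none called lower. All 6 neuron markers lay in the same direction, from 1.24 for Slc17a7 to 4.29 for Gad1, and their part in these results was not tested beyond leaving out wells with at least 3 markers of a lineage. Of 16 glutamate receptor genes 10 were higher (median 1.33), and of 18 genes of GABA, acetylcholine and purine receptors 17 (median 3.41). The share over all genes tested was 24.1% higher and 10.9% lower. The kainate receptor subunit Grik1 stood at 4.67, and the NMDA receptor subunit Grin3a, with 0 through 104 to 2355 CPM in OPC wells and 0 through 3.57 to 781 CPM in COP wells, at 2.77. Gria2, the AMPA receptor subunit that limits calcium entry, had 456 CPM in OPC wells, 284 CPM in COP wells and 13.9 CPM in mature oligodendrocyte wells. The nicotinic subunit Chrna4 (5.76), Adora1, the muscarinic receptor Chrm1 (4.81), and the GABA-A subunit Gabra4 (4.03) were among the higher, and the purine receptor P2rx4 stood at 0.58. Chrna4 ran from 0 through 8.08 to 2178 CPM in OPC wells and from 0 through 2.41 to 14.7 CPM in COP wells. With wells holding markers of other lineages left out, 11 of 16 and 17 of 18 were higher in the same order of lists, with medians of 1.49 and 3.39.

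Of 29 ion channel genes, 22 were higher and 3 lower in OPC wells (median 2.27), beside 24.1% and 10.9% of all genes tested. Kcnip3, a calcium-binding partner of A-type potassium channels, ran from 2.27 through 1520 to 4908 CPM in OPC wells and from 0 through 28.0 to 1398 CPM in COP wells (log2 ratio 5.11). Its channel Kcnd2 stood at 5.55 and Kcnd3 at 4.57. The AMPA receptor partner Cacng4, with medians of 704 CPM in OPC wells and 19.6 CPM in COP wells, stood at 2.99. The sodium channel genes Scn3b and Scn1a stood at 4.93 and 4.84. Kcna1, a delayed rectifier of the Shaker family, was lowest, at −3.27, and the glial inward rectifier Kcnj10 stood at −0.60.

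Adhesion and guidance genes were divided, with 22 higher and 10 lower of 44 (median 0.96), where all genes tested had 24.1% and 10.9%. Chl1, a neural adhesion molecule (5.77), and the ephrin receptor Epha5 (4.59) led the higher genes. Nxph1, the neurexin ligand neurexophilin, ran from 0 through 529 to 2287 CPM in OPC wells and from 0 through 8.82 to 614 CPM in COP wells (log2 ratio 3.92). At the other end, Sema4d, a semaphorin, had 65.1 CPM in OPC wells and 1206 CPM in COP wells (−4.19), and Plxnb3, a receptor of semaphorins, had 119 and 1497 CPM (−3.64). Cadm4 stood at −0.10.

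Among 28 cell cycle genes, OPC wells were higher for 24 and lower for 1 (median 3.48), beside 24.1% and 10.9% of all genes tested. The cell cycle genes differed in how many wells held them. The median was 2.00 within 613s and 2.68 within 1025s_182s, and it was 0.62 without the cycling wells described next, which were picked by genes of this kind. Ccnd1, the D-type cyclin induced by growth factors, had reads in 98.2% of thinned OPC wells, with 0 through 949 to 3617 CPM, and ran from 0 through 17.8 to 661 CPM in COP wells (log2 ratio 5.12). The genes of division Top2a (5.07) and Mki67 (4.89) had medians of 0 CPM over OPC wells and highest wells of 3291 and 2014 CPM. Wells with at least 3 cell cycle genes of division at 20 CPM numbered 18 of 218 OPC wells (8.26%, 4.97 to 12.7), 0 of 79 COP wells, where a count of 0 allows up to 4.56%, and 0 of 197 mature oligodendrocyte wells. They were 15 of 173 in 600s_182s, 2 of 25 in 613s and 1 of 20 in 1025s_182s. The inhibitor Cdkn1c was lower in OPC wells (−2.73), and Pcna, which is used outside division too, stood at −0.23.

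**Figure D3:**
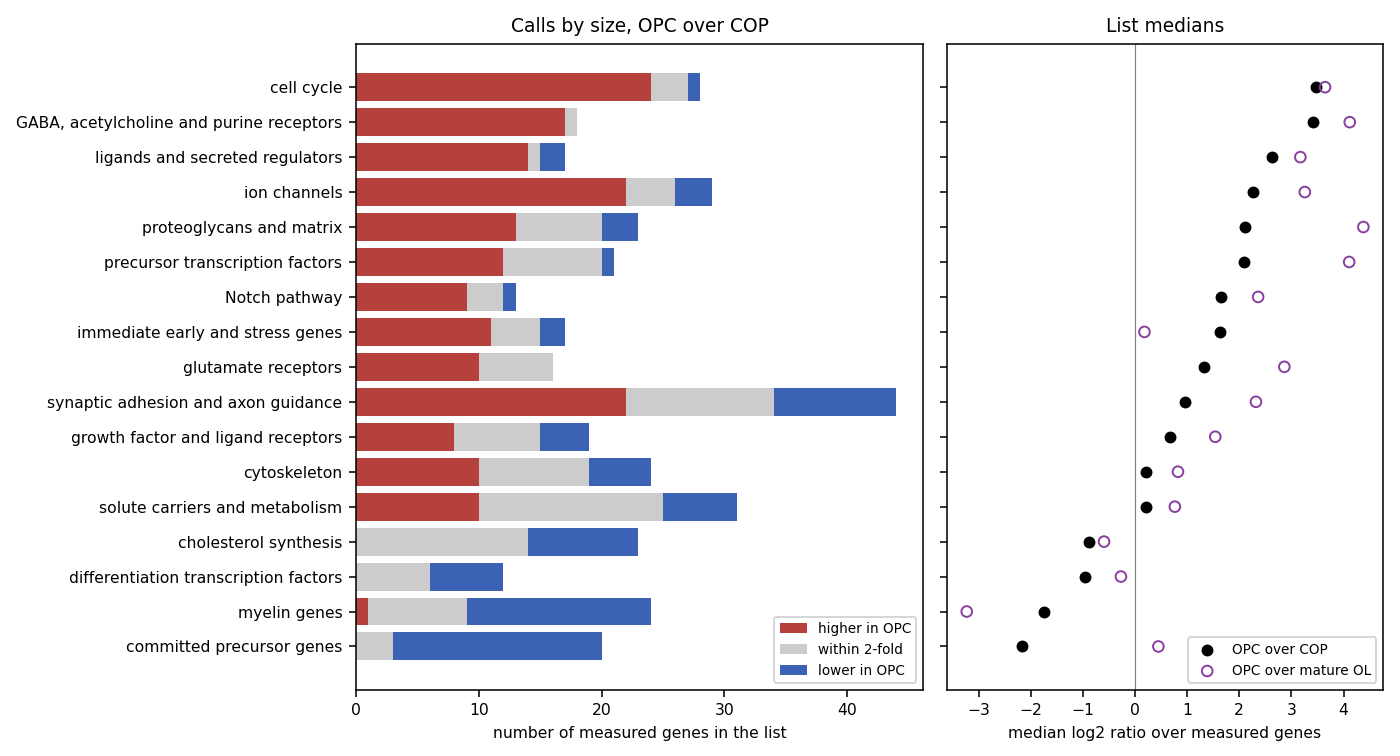
Left, the number of measured genes of each list that were at least 2-fold higher, within 2-fold, or at least 2-fold lower in OPC than in COP wells. Right, the median log2 ratio of each list, for OPC over COP (filled) and OPC over mature oligodendrocyte wells (open), with cell cycle at 3.48 and committed precursor genes at −2.17 against COP wells over all sets. Within single sets the order differs, with GABA, acetylcholine and purine receptors above cell cycle in each.

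Genes of the next stage were present in OPC wells at a lower level. Of 20 committed precursor genes, 0 were higher and 17 lower in OPC wells (median −2.17), against 24.1% and 10.9% of all genes tested. Fyn, a kinase that acts in process outgrowth, ran from 0 through 84.3 to 1132 CPM in OPC wells and from 0 through 2094 to 4044 CPM in COP wells (log2 ratio −3.81). Gpr17, a receptor of the committed stage, was at 100 CPM or more in 197 of 218 OPC wells, with 0 through 836 to 6544 CPM, and ran from 0 through 2498 to 7888 CPM in COP wells (log2 ratio −1.22). The ranges of Gpr17 in OPC and COP wells overlap almost wholly, and its ratio was 0.53 within 1025s_182s. Its count at 100 CPM depended on the set. In 600s_182s, 166 of 173 OPC wells and 45 of 52 mature oligodendrocyte wells reached this level. The numbers were 20 of 25 and 13 of 80 in 613s, and 11 of 20 and 8 of 65 in 1025s_182s. The sialidase Neu4 lay within 2-fold, at 997 CPM in OPC wells and 936 CPM in COP wells (0.09), and summed to 12.6 CPM in mature oligodendrocyte wells.

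Myelin genes were lower in OPC wells in 15 of 24 cases (median −1.75), where 10.9% of all genes tested were lower. The adhesion proteins of myelinating cells Nfasc (−3.76) and Mag (−2.57) were among them, whereas Omg was higher (1.35) and Mobp, Mal and Ermn stood at 0.09, −0.01 and 0.19. Of the OPC wells, 194 held at least 3 of the 6 markers of mature oligodendrocytes at 20 CPM, 162 of 173 in 600s_182s, 22 of 25 in 613s and 10 of 20 in 1025s_182s. The summed level of those 6 markers ran from 43.1 through 1045 to 13278 CPM in OPC wells, against 1149 through 14733 to 27103 CPM in mature oligodendrocyte wells. Mog and Mag, both among these markers, also chose the mature wells. The highest OPC wells thus reach into the range of the mature class, and whether such reads come from the cell of the well was not tested.

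The enzymes of cholesterol synthesis, the main lipid of myelin, were lower in OPC wells in 9 of 23 cases and higher in 0 (median −0.89). Mvd and Ebp stood at −1.95 and −1.83, and Srebf2, the regulator of the pathway, at −0.24. With wells that hold markers of other lineages left out, 14 of 23 were lower. Of all genes tested, 24.1% were higher and 10.9% lower, beside which the next counts stand. In the cytoskeleton list 10 were higher and 5 lower of 24 (median 0.22), with the progenitor filament Nes at 3.89, Actb at 0.10 and the microtubule protein Map1b at −3.05. Solute carriers and metabolic genes had 10 higher and 6 lower of 31 (median 0.21), from Slc22a3 (3.76) and the glutamate transporter Slc1a3 (3.61) through Slc6a9 (−0.03) to the proline synthesis gene Pycr1 (−3.81). Apoe, the lipid carrier, ran from 53.0 through 1727 to 4580 CPM in OPC wells and from 25.2 through 161 to 6385 CPM in COP wells (2.34).

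Immediate early and stress genes, which respond within minutes to stimulation or to tissue digestion, had 11 higher and 2 lower of 17 (median 1.62). For all genes tested these shares were 24.1% and 10.9%. Fos had 582 CPM in OPC wells and 123 CPM in COP wells (2.23), and Socs3 stood at 3.32, Hsph1 at 0.11 and Hspa1a at −1.38. Fos and Egr1 had ratios of 3.86 and 4.50 within 600s_182s but −0.21 and −2.31 within 1025s_182s, and Hspa1a had 0.82 within 613s and 1.05 within 1025s_182s. In the 8 COP wells of 1025s_182s, Egr1 had a median of 27.8 CPM and a highest well of 3344 CPM, so few of these wells hold most of it.

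Set beside mature oligodendrocyte wells, OPC wells were at least 2-fold higher for 3509 of 11489 genes (30.5%) and lower for 1321 (11.5%), with a median log2 ratio of 0.38 over all of them. Scaled by the median ratio instead, 2625 were higher and 2071 lower. The comparison shares its OPC wells with the one against COP wells. The lists with the highest medians were proteoglycans and matrix (4.38), GABA, acetylcholine and purine receptors (4.12) and precursor transcription factors (4.11). Myelin genes had the lowest (−3.23, 21 of 24 lower). The mature wells were chosen by Mog and Mag, and the myelin list holds Mag, so its values here describe that choice in part. Several genes that lay within 2-fold between OPC and COP wells were far higher in OPC than in mature oligodendrocyte wells. Among them were Bcan (5.03), Neu4 (6.20), Sox6 (5.51), Gria2 (4.94) and the receptor Gpr37l1 (4.16). Gpr37l1, which binds prosaposin peptides, ran from 72.9 through 2501 to 5912 CPM in OPC wells and from 0 through 1996 to 3894 CPM in COP wells. Mobp, Mal, Aspa and Ermn, within 2-fold between OPC and COP wells, were lower than in mature oligodendrocyte wells, with Mobp at −2.34 and Mal at −4.06.

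**Figure D4:**
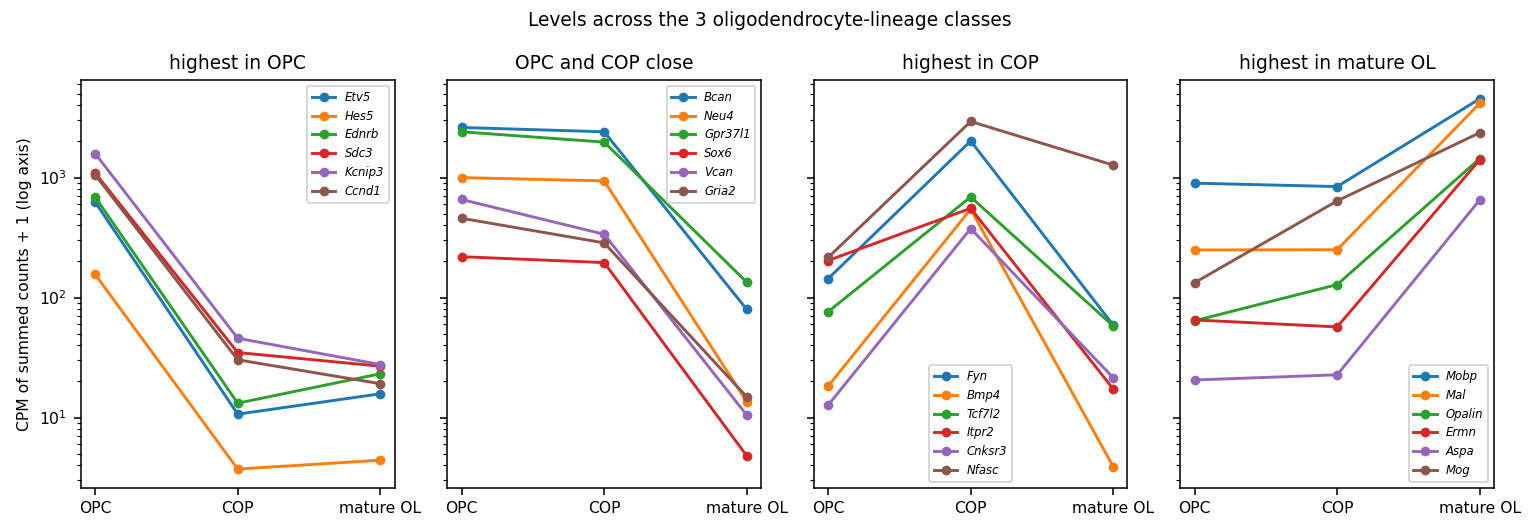
CPM of summed counts plus 1, on a log axis, in OPC, COP and mature oligodendrocyte (OL) wells for 6 genes in each of 4 panels, picked after their values were seen. Bcan had 2611, 2403 and 78.7 CPM and Fyn 143, 2015 and 58.0 CPM in that order of classes.

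Per length, as read counts divided by GENCODE vM21 exon length and scaled to a common total (TPM), Olig1 led the nuclear genes named here in OPC wells at 5619 TPM, against 2868 TPM in COP wells. Gpr37l1 had 3513 TPM, Actb 3251 TPM, Apoe 2621 TPM, Bcan 2131 TPM, Olig2 1628 TPM and Kcnip3 1482 TPM. Gpr17 had 736 TPM, Ptprz1 701 TPM, Cspg5 524 TPM and Pdgfra 426 TPM, so the genes that chose the wells were not the most abundant ones. In COP wells Apoe had 525 TPM, Kcnip3 42.7 TPM and Gpr17 1751 TPM.

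Relative to the median gene of their group by mean level, Rlbp1, Etv5, Igsf21 and Susd5 varied most among OPC wells. Genes were split into 20 such groups, and all 10 genes named here fell in the highest, which has no upper limit. That group also holds more abundant genes, so the ranking depends in part on the grouping. The SD of log2(CPM + 1) over thinned OPC wells was 3.84 for Rlbp1 and 3.62 for Etv5, where the median gene of that group had 2.28. Etv5 had 47.3 CPM at the lower quartile of OPC wells and 981 CPM at the upper. Gaa, Gpt2, Megf11, Nxph1, Emid1 and Rap1gap followed. All 10 had reads in 79.8% to 85.8% of thinned OPC wells, and in set 600s_182s alone Rlbp1 again came first, at 3.51 where the median gene had 2.04. Of the 10, Susd5, Nxph1, Etv5 and Gaa were also among the first 10 there, and Igsf21, Gpt2, Megf11, Emid1 and Rap1gap were not. Their summed levels in the 3 sets lay within 2-fold of each other, for example 606, 803 and 469 CPM of Etv5 in 600s_182s, 613s and 1025s_182s.

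Between sets, OPC wells of 600s_182s were at least 2-fold higher than those of 613s for 2691 of 11662 genes (23.1%) and lower for 1879 (16.1%), with a median log2 ratio of 0.09. The labels do not say what the sets are, so mouse line, animal, plate and run cannot be told apart in them. Mycl, a Myc-family factor, led the higher genes (4.45), at 115 CPM in 600s_182s and 4.29 CPM in 613s, though its median well in 600s_182s had 11.3 CPM and its highest 2122 CPM. Gsto1 (3.64), the stem cell factor Sox2 (3.48) and Eml1 (3.23) were also among the 5 highest. Lower were Ttr (−4.83), the thyroid hormone carrier of the choroid plexus, Evi2a (−3.12), Unc13c (−2.57), Nrsn1 (−2.42) and Abcc5 (−2.35). Ttr ran from 0 through 0 to 252 CPM in OPC wells of 600s_182s and from 0 through 291 to 1853 CPM in those of 613s, and had 5.37 and 134 CPM in the COP wells of the same sets. The difference in Ttr was thus found in both classes. Cell cycle genes were higher in 600s_182s in 17 of 28 cases and lower in 0 (median 1.53). Cycling OPC wells were 15 of 173 in 600s_182s and 2 of 25 in 613s, so few such wells stand behind the levels of 613s.

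Enpp6 itself showed a floor that followed the set and not the class. In 600s_182s it ran from 3.77 through 36.2 to 185 CPM in OPC wells and from 4.44 through 29.2 to 155 CPM in mature oligodendrocyte wells, at 0 in none of either. In 613s its median was 0 CPM in OPC wells and 5.01 CPM in mature oligodendrocyte wells, and in 1025s_182s it was 0 CPM in both. Pdgfra gave the same picture outside OPC wells, with medians of 19.6 CPM in COP wells and 20.8 CPM in mature oligodendrocyte wells of 600s_182s, and 0 CPM in both classes of 1025s_182s. The rule's limit of 200 CPM for Enpp6 lies above this level. The log2 ratio of Pdgfra, OPC over COP wells, was 6.04 in 600s_182s, 7.85 in 613s and 7.46 in 1025s_182s. Other genes of the lineage had a like floor. The lowest mature oligodendrocyte wells of 600s_182s had 14.5 CPM of Cspg5, 16.5 of Ptprz1, 37.8 of Bcan and 54.6 of Gpr17. In 613s and 1025s_182s the lowest such wells had 0 CPM of all of these. Set 600s_182s holds 173 of the 218 OPC wells and 63 of the 79 COP wells. Low levels of such genes over all wells, and ratios that rest on them, may thus include this floor. What gives the floor was not tested.

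The COP wells of 1025s_182s also stood apart from those of the other sets. Ptprz1, which ran from 25.2 through 380 to 1836 CPM in the COP wells of 600s_182s, had at most 4.11 CPM in the 8 of 1025s_182s, and Gpr17 had medians of 233 CPM there and 2748 CPM in 600s_182s. One of these 8 wells held 5129 CPM of Dcn, a fibroblast gene. OPC wells of the 3 sets had medians of 3019, 2744 and 2349 CPM for Ptprz1 and 2712, 1683 and 3134 CPM for Bcan in 600s_182s, 613s and 1025s_182s. Their medians of Gpr17 were 949, 630 and 142 CPM, with 0 CPM in 6 of the 20 wells of 1025s_182s. Neu4 had medians of 862, 763 and 369 CPM and Dll3 of 90.5, 29.2 and 0 CPM in the same order of sets. Without 1025s_182s, 2848 genes were higher and 1266 lower in OPC than in COP wells.

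**Figure D5:**
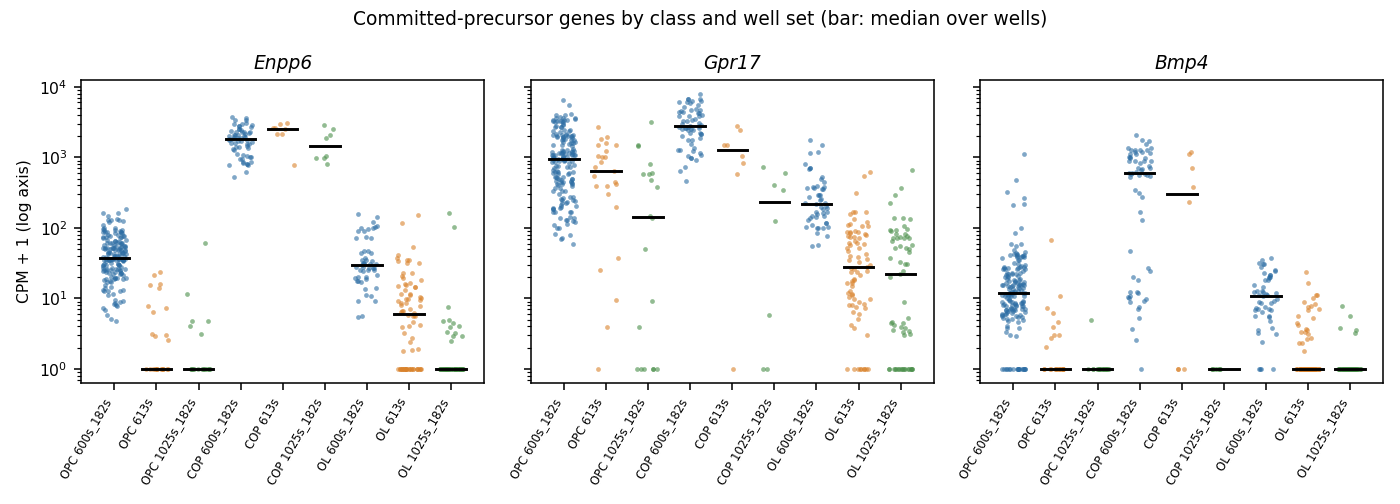
CPM + 1 on a log axis of Enpp6, Gpr17 and Bmp4 in each well, by class (OPC, COP and mature oligodendrocyte, OL) and well set, with the median over wells as a bar. Enpp6 in OPC wells has medians of 36.2 CPM in 600s_182s and 0 CPM in both other sets, and Bmp4 is at 0 in all 8 COP wells of 1025s_182s.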

How the data were processed

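The deposited table holds whole-number read counts per gene and well, not normalized by the authors. Per the submitters' processing notes, the tools were TopHat2 (2.1.1), featureCounts from Subread (1.4.6-p5) and SAMtools (0.1.18), and the builds GRCm38 and mm10. Annotation, strand setting and treatment of multiply matching reads were not given in the sources used here, so values of overlapping, antisense and near-identical genes are uncertain. CPM is the count divided by the well's total, times 1e6.

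Classes were compared by the log2 ratio of their pooled CPM, after adding 1 CPM to each. A gene was called at a 2-fold ratio and 10 CPM in the higher class, with no test. CPM carries exact Poisson and shares carry exact Clopper-Pearson 95% intervals. The Poisson intervals take reads as independent, which PCR copies are not, and leave out the spread between wells. The Clopper-Pearson intervals take wells as independent, and neither kind covers the spread between sets or animals. Shares of wells with reads use wells thinned to 50000 reads. List medians take genes with at least 10 CPM in either class, and 3 genes stand in both the committed precursor and the differentiation list. Lists are described beside the counts over all genes.

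The members and the lists were chosen with earlier results of these data known. Named genes are the markers, the 15 highest and 15 lowest with at least 20 CPM and reads in 50% of thinned wells of the higher class and the same call in every set with 5 wells of both classes (mitochondrial, Gm and Rik symbols left out), the extremes of each list, the 5 highest and lowest between sets and the 10 most spread genes. Others were picked after their values were seen, and some genes that the rule names are not reported here. Of 46517 symbols, 42052 (90.4%) matched GENCODE vM21 (GRCm38). Of the 30 named genes, 21 had a RefSeq promoter. The ratio and its call were tested on simulated data. Python 3.11.15, numpy 2.4.6, pandas 2.3.3 and scipy 1.17.1 were used. Leaving out sets and wells, other scalings, filters and thresholds were tried.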

Additional observations from a re-analysis of the deposited data

How the results depend on the processing

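Of the 218 OPC wells, 210 remained at 2 times the read minimum, 200 at thresholds of 2 times the rule, and 137 when wells with markers of other lineages were left out. The counts of genes higher and lower in OPC than COP wells (2765 and 1250) were 4383 and 1888 with a filter of 1 CPM in place of 10, and 1104 and 776 at 50 CPM, where fewer genes were tested. They were 4153 and 2532 within 613s, 4225 and 2781 within 1025s_182s (an alternative chosen after seeing the data) and 3856 and 2252 without 600s_182s. The other alternatives, among them leaving out 613s (2734 and 1322) or cycling wells (2695 and 1285), stayed within 1.5 times. Scaling by the median ratio gave 2385 and 1526. Against mature oligodendrocyte wells it gave 2625 higher and 2071 lower genes, against 3509 and 1321. Between sets, 4135 genes were higher in 600s_182s without wells of other markers, against 2691. None of the 17 list medians changed sign under the 15 alternatives. The 30 genes named by size and the 7 marker genes kept theirs too, but the rules that chose genes and wells fix much of this. The sizes of these gene ratios were less stable. Under the alternatives, 285 lay outside the range given by the Poisson intervals of both classes and 270 within it. Ptprz1 ran from 2.72 to 9.88 and Cnksr3 from −8.89 to −4.15, while Olig1 ran only from 0.83 to 1.07. Among list members named in the text with a 2-fold ratio, Bmp4, Ednra, Egr1, Fos, Gpr17, Hspa1a, Notch2 and Sox13 changed sign within 1025s_182s. The median of the cell cycle list ran from 0.62 without cycling wells to 3.71 without wells of other markers. In sets 613s and 1025s_182s, 8 COP wells limit every ratio. No paired analysis was possible because the labels tie no well to a replicate, and ratios within each set are given instead.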
